A study of Mus musculus with 2 samples.

Results

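Mir214, Mir199b, Mir199a-2 and Mir199a-1 are miRNA genes of a pair of families known from connective tissue, muscle and bone. They were picked by name, and all 4 members were found among the 1973 miRNA genes counted in each library. The material was whole bladder of newborn mice of strain B6NCrl, taken at postnatal day 0, with no treatment and no altered allele named in the labels. Total RNA of a size range below 30 nucleotides was sequenced from 1 bladder of pup 2 and 1 bladder of pup 1, which the labels place in the same litter, and sex was not recorded. These 2 libraries form 1 group, so levels and the spread between littermates could be described, but no condition could be compared.

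A miRNA is cut from a hairpin in a longer transcript, and its bases 2 to 8, the seed, pair with messenger RNAs that are then repressed. Each hairpin has a 5′ arm and a 3′ arm, and either can give a mature miRNA (5p or 3p). In vertebrates the Mir199 and Mir214 genes lie on the strand opposite to dynamin genes, which encode proteins that pinch off membrane vesicles. In mice the non-coding RNA Dnm3os is the precursor of miR-199a and miR-214 and is needed for normal growth of the skeleton. In mouse muscle cells miR-214 represses Ezh2, a histone methyltransferase of the Polycomb group.

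Counts of a gene depend on how much of its sequence is its own, because reads that mapped to several places were listed apart from the genes. The mature sequences, from RefSeq on GRCm38.p6 and available for 4 of 4 members, are therefore shown first, 5′ to 3′ with the seed in capitals.
miR-214-3p, from Mir214: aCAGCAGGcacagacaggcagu
miR-214-5p, from Mir214: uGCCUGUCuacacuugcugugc
miR-199a-3p, from Mir199a-2 and Mir199a-1, and miR-199b-3p, from Mir199b: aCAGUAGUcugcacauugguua
miR-199a-5p, from Mir199a-2 and Mir199a-1: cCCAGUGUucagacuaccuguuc

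The 3p miRNA of all 3 Mir199 genes was the same 22 bases, and the 5p miRNA of Mir199a-2 and Mir199a-1 was the same 23 bases. A read that lies wholly within these bases cannot be placed at 1 of those genes. On the 5′ arm of Mir199b, the 23 bases of the hairpin nearest to miR-199a-5p differed from it by 1 substitution, C10U, with positions counted from the 5′ end of miR-199a-5p. The pair is shown with that base in capitals.
miR-199a-5p: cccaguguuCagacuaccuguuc
Mir199b, bases 26 to 48 of the hairpin: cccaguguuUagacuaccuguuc
The seed of this Mir199b stretch was that of miR-199a-5p. The longest run the pair shared was 13 bases, so a full-length read of this arm carries a base that marks it as Mir199b. Both arms of Mir214 had no identical run of 18 or more bases in the mature miRNAs of the other genes. The seed of miR-214-3p occurs in 1 other mature miRNA of the RefSeq table, miR-761, whose remaining bases differ.
miR-761, from Mir761: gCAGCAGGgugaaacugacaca
Mir761 had 0 counts in pup 2 and 0 counts in pup 1. Levels are given as counts per 1000000 sense-strand gene counts of a library (CPM), and on this scale 0 counts leave room for a level of at most 0.825 in pup 2 and 0.402 in pup 1. Without molecular identifiers on the reads, these limits and the intervals given below speak for counting error and nothing else.

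The hairpins of the Mir199 genes show where a read could still be placed. Capitals mark bases outside every run of 20 or more bases that occurs in another of the 1894 miRNA genes with a sequence, searched on both strands. The rest of the genome was not searched.
Mir199b, chr2:32318460-32318569, plus strand: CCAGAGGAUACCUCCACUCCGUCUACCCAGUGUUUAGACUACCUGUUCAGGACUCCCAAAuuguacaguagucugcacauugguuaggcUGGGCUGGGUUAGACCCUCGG
Mir199a-2, chr1:162217814-162217923, plus strand: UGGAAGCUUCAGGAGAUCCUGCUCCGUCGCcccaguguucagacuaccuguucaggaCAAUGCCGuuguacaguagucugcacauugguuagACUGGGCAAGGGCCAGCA
Mir199a-1, chr9:21496495-21496564, minus strand: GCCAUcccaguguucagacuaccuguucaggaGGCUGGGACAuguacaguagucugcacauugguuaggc
Shared bases made up 29 of 110 in Mir199b (26.4%), 54 of 110 in Mir199a-2 (49.1%) and 55 of 70 in Mir199a-1 (78.6%). For runs of 18 bases the shared part of Mir199b was 47 bases (42.7%), since part of its 5′ arm then counted as shared. The hairpin of Mir214, chr1:162223368-162223477 on the plus strand, had 0 of 110 bases in such runs. All partners found for a Mir199 gene were the other Mir199 genes.

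**Figure D1:**
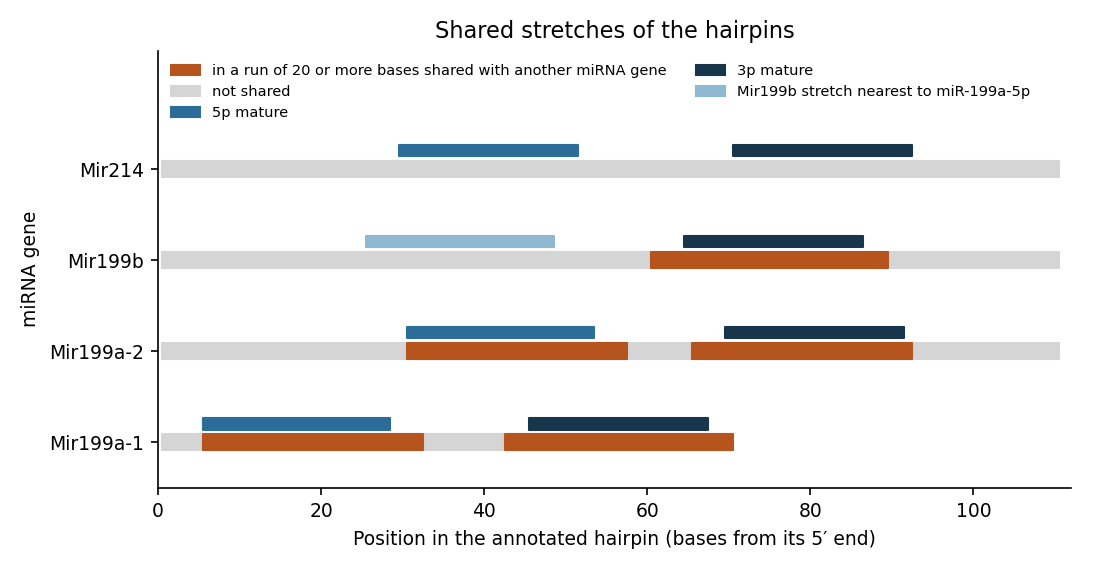
Each grey bar is a hairpin drawn by base position from its 5′ end (horizontal axis, bases), with orange where the bases lie in a run of 20 or more that occurs in another miRNA gene and with the mature miRNAs in blue above. Orange covers both mature miRNAs of Mir199a-2 and Mir199a-1 and the 3p miRNA of Mir199b, and no base of Mir214.

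By position in the GENCODE M21 annotation, the members fall into 3 loci. Mir214 (ENSMUSG00000065516.1) and Mir199a-2 (ENSMUSG00000070126.1) both lie within an annotated exon of Dnm3os on its strand, 5445 bases apart, in an intron of Dnm3 on the opposite strand. Mir199b (ENSMUSG00000092807.1) lies in an intron of Dnm1 on the opposite strand. The miRNA gene Gm23363 is 117 bases away from Mir199b on the same strand and had 2 counts in pup 2 and 3 counts in pup 1. Mir199a-1 (ENSMUSG00000065547.1) lies in an intron of Dnm2, again on the opposite strand. Each dynamin gene was the only protein-coding gene within 10 kb of its member.

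Depth differed between the libraries, with 3636650 sense-strand gene counts in pup 2 and 7460621 in pup 1. The share of all reads that mapped to several places was 24.8% in pup 2 and 22.7% in pup 1. Marker lists of other cell types were present in both bladders. Mir143, Mir145a and Mir145b of smooth muscle summed to 53.5% of gene counts in pup 2 and 53.8% in pup 1, 7 of 7 epithelial genes to 1.63% and 1.67% in the same order, and Mir126a of endothelium to 1.96% and 1.99%. In whole tissue, fewer cells of a type and less RNA per cell cannot be told apart, and which cells made the Mir199 and Mir214 counts was not measured.

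Mir214 held most of the counts of the 4 loci. It had 13807 counts in pup 2 and 30676 counts in pup 1, which is 3797 and 4112 CPM. Its mean was 3954 ± 222.8 CPM (SD, n = 2), rank 25 of the 1973 genes, and the pups ranked it 26 and 25. A read of a small RNA covers 1 mature miRNA, so CPM is not divided by length. Divided by the length of the gene, Mir214 had 35.9 CPM per base and rank 31 of 1894 genes with a position. The table counts both arms of the hairpin together, so the parts of miR-214-3p and miR-214-5p in this level are not known.

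Mir199b was next among the members. It had 847 counts in pup 2 and 1579 counts in pup 1, or 233 and 212 CPM. The mean was 222.3 ± 15.03 CPM (SD, n = 2), at rank 123, and 2.02 CPM per base at rank 132. The gene's counts include whatever reads of its 5′ arm were placed, where the substitution sets it apart, and exclude reads lying wholly in the shared 3p bases if these were treated as mapping to several places.

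Mir199a-2, the neighbour of Mir214 in Dnm3os, had 208 counts in pup 2 and 402 counts in pup 1, or 57.2 and 53.9 CPM. Its mean was 55.5 ± 2.34 CPM (SD, n = 2), rank 180, with 0.505 CPM per base. Mir199a-1 had 14 counts in pup 2 and 32 counts in pup 1, or 3.85 and 4.29 CPM. The exact 95% interval of this level was 2.10 to 6.46 CPM in pup 2 and 2.93 to 6.06 CPM in pup 1. Its mean was 4.07 ± 0.311 CPM (SD, n = 2), rank 281, with 0.0581 CPM per base.

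**Figure D2:**
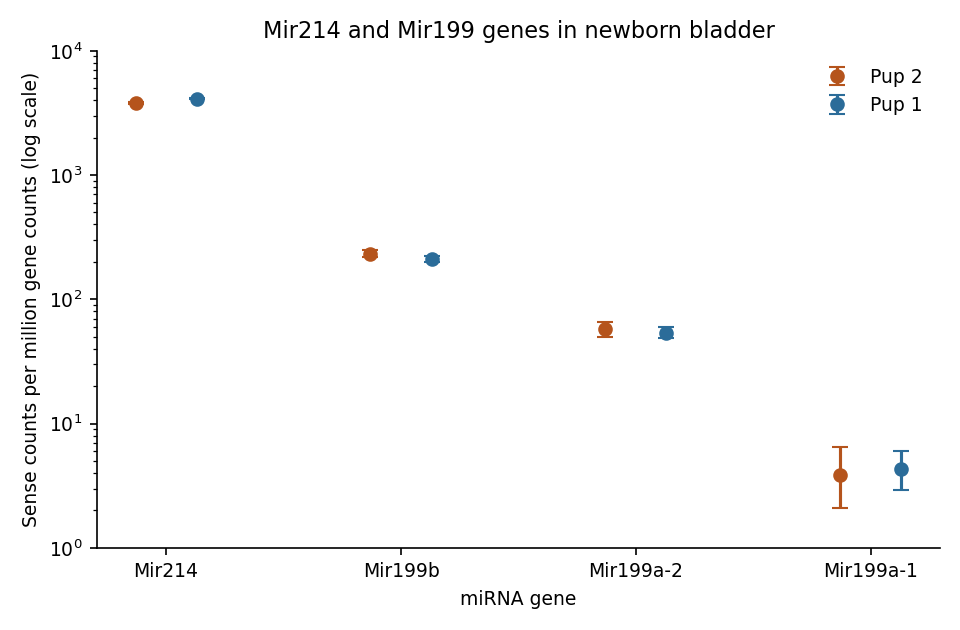
Sense-strand CPM of each gene on a log axis, with 1 point per pup and bars for the exact 95% interval of counting. The order Mir214, Mir199b, Mir199a-2, Mir199a-1 is the same in both pups, and no neighbours in that order overlap.

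The 4 levels were separated by more than the spread between the pups. Mir214 counts were 16.3 times those of Mir199b in pup 2 (exact 95% interval 15.2 to 17.5) and 19.4 times in pup 1 (18.5 to 20.4), a mean of 17.9 ± 2.21 (SD, n = 2). Both genes are 110 bases long, so the fold is the same per base. These intervals do not overlap, so this ratio, which needs no scaling between libraries, was lower in pup 2 by more than counting error. Mir199b counts were 4.07 times those of Mir199a-2 in pup 2 and 3.93 times in pup 1. Mir199a-2 counts were 14.9 times those of Mir199a-1 in pup 2 and 12.6 times in pup 1, and 9.45 and 7.99 times per base. Since the Mir199 levels leave out reads that fit several of these genes, the folds are ratios of assigned reads and give no order of transcription between the loci.

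The neighbours within Dnm3os stood far apart in assigned counts. Mir214 counts were 66.4 times those of Mir199a-2 in pup 2 (exact 95% interval 57.9 to 76.5) and 76.3 times in pup 1 (69.2 to 84.4), a mean of 71.3 ± 7.02 (SD, n = 2). The intervals of the pups overlap. Of these neighbours, Mir214 is the one with no shared run and Mir199a-2 the one whose mature miRNAs are both found at other loci. How many reads of Mir199a-2 were listed as mapping to several places is not known. The Mir199a genes together had 222 assigned counts in pup 2, where 1390007 reads mapped to several places, and 434 in pup 1, where 2570930 did. Those totals take in the whole library and not only reads of miRNA genes. The part of unassigned reads in the gap between Mir214 and Mir199a-2 was not tested. Of the summed counts of the 4 members, Mir214 took 92.8% in pup 2 and 93.8% in pup 1. Together the members held 0.409% of gene counts in pup 2 and 0.438% in pup 1.

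To set the Mir199 genes beside others of their kind, genes with a mature sequence in RefSeq were grouped by whether an identical run of 20 or more bases occurs in another gene. All annotated mature miRNAs had such a copy in 53 genes, among them Mir199b, Mir199a-2 and Mir199a-1. For Mir199b the RefSeq table lists a 3p miRNA only, so this gene is in the group by that arm alone. Its 5′ arm had no run of 20 or more bases in another gene, so reads of that arm can be placed. Of the 53 genes, 42 had no count in either library and 11 had at least 1. Among those 11, Mir199b had the highest mean CPM, Mir199a-2 ranked 3 after Mirlet7c-2 at 128.3 ± 3.74 CPM, and Mir199a-1 ranked 7. Mir103-2 at 19.1 ± 0.521 CPM and Mir3074-1 at 15.3 ± 0.684 CPM stood between Mir199a-2 and Mir199a-1, and so did Mir378c at 7.54 ± 0.231 CPM. No gene of this kind reached 1000 CPM, and the 2 at or above 100 CPM were Mir199b and Mirlet7c-2.

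Mir214 belonged to the 803 genes in which no annotated mature miRNA had a copy of this kind. Of these, 22 had a higher mean level than Mir214, 60 reached 1000 CPM and 290 had no count. A further 60 genes had a copy of some but not all of their mature miRNAs, and 14 of them reached 100 CPM. The levels within each kind of gene also depend on which miRNAs the bladder makes, so the groups are a description. The grouping rests on the mature miRNAs that RefSeq lists and on the genes with a sequence here. A gene without a listed copy can still share a miRNA that the search did not hold.

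**Figure D3:**
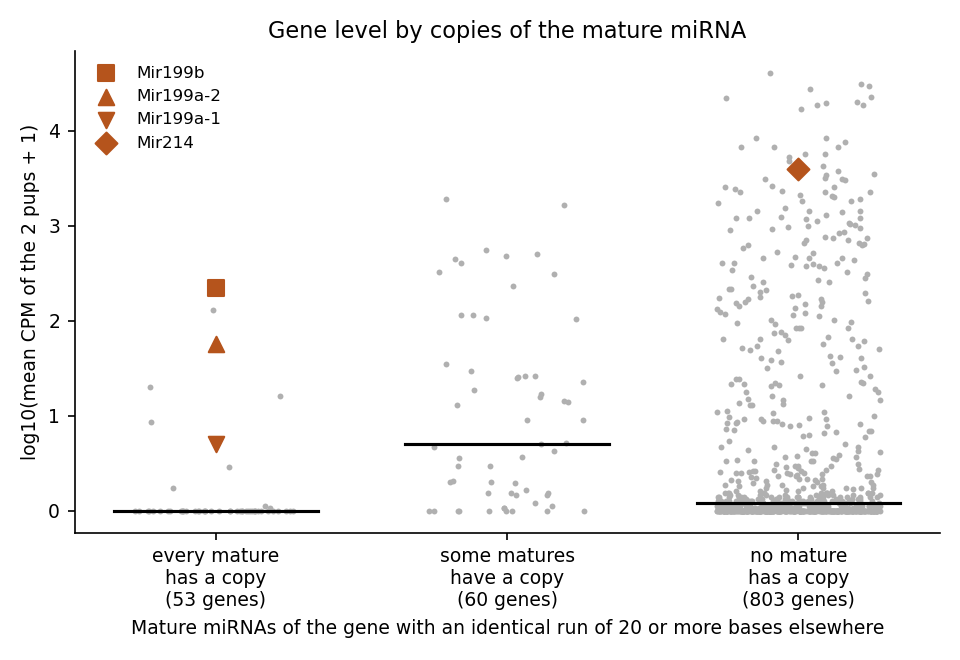
Mean level of each gene as log10(CPM + 1) (vertical axis), for genes in which every, some or no annotated mature miRNA has an identical run of 20 or more bases in another gene. Black lines are medians, and the orange symbols are Mir199b, Mir199a-2 and Mir199a-1 on the left and Mir214 on the right.

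In the ranking of all genes, Mir214 stood below Mir127 at 4226 ± 107.1 CPM and Mir429 at 4817 ± 79.9 CPM, and above Mir30a at 3754 ± 153.2 CPM. The range of the pups overlapped that of Mir214 for Mir30a alone among the 3 genes next above and the 3 next below. Per base, all 6 of these shorter genes had more counts than Mir214, from 41.7 CPM per base for Mir17 to 60.4 for Mir127. Mir199b stood in a denser part of the ranking. Mir674, Mir125b-1, Mir574, Mir186 and Mir676 had pup ranges that overlapped its own, and Mir34c, at 254.2 ± 4.09 CPM, did not.

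Other miRNAs linked to mesenchyme and fibroblasts gave a scale for the members. Of 16 genes in that list, 4 had a higher mean level than Mir214, in CPM and also per base. They were Mir21a at 31210 ± 810.4 CPM, Mir22 at 19380 ± 2921 CPM, Mir10b at 7526 ± 487.1 CPM and Mir10a at 5651 ± 459.6 CPM. Mir100 at 2535 ± 188.3 CPM and Mir140, a miRNA of cartilage, at 1211 ± 155.6 CPM lay between Mir214 and Mir199b on both scales. So did the means of Mir27a, Mir125b-2, Mir29a, Mir152 and Mir125b-1, from 451.4 ± 0.618 CPM for Mir27a to 232.6 ± 16.0 CPM for Mir125b-1. Mir29b-1, at 4.07 ± 0.0732 CPM and 0.0574 CPM per base, was level with Mir199a-1 in assigned counts. Some but not all mature miRNAs of Mir29b-1 have a run of 20 or more bases in another gene. Part of its reads can therefore be missing, and the same holds for Mir29b-2, Mir125b-1, Mir125b-2, Mir218-1 and Mir218-2 of this list. The list of miRNAs of striated muscle and bone differentiation lay far below Mir214, with a sum over its 9 genes of 81.7 CPM in pup 2 and 96.1 CPM in pup 1. Mir208b, a miRNA of muscle myosin genes, was its highest member at 62.9 ± 14.7 CPM. Mir206, a miRNA of skeletal muscle, had 9.00 ± 3.01 CPM. Mir1a-1, Mir133a-1, Mir133a-2, Mir133b and Mir211 of the same list had means under 1 CPM. The Mir133 genes among them share runs of 20 or more bases, so their reads can be missing too. The search for such runs did not include Mir1a-2, so whether reads of Mir1a-1 were missing in the same way is not known. Mir1a-2 and Mir142, a miRNA of blood cells, were not analysed here.

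The libraries of the littermates were then compared for the members. Each gene was given a two-sided exact binomial test, and p-values were adjusted by the Benjamini-Hochberg method over 362 genes with at least 10 counts summed. By this test 2 of the 4 members differed, against 32.3% of all genes tested. The share of genes called was 19.1% for higher and 13.3% for lower in pup 2, or 69 and 48 genes, and the split was 59 and 64 with library totals and 49 and 73 with DESeq2 size factors. Pup 2 had less Mir214 than pup 1, with a log2 ratio of pup 2 over pup 1 of -0.091 (counting SE 0.0148, adjusted p = 4.68e-09, exact binomial test). Pup 2 had more Mir199b, with a log2 ratio of 0.16 (counting SE 0.0614, adjusted p = 0.0299, exact binomial test). The median ratio of all tested genes was 0.03 on the log2 scale. The ratio of Mir199a-2 was 0.11 (counting SE 0.123, adjusted p = 0.567, exact binomial test) and that of Mir199a-1 was -0.13 (counting SE 0.457, adjusted p = 0.957, exact binomial test), neither past the threshold.

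This test sets 1 library against 1 other with counting noise alone, has no replicate check and compares no condition. The call for Mir199b was lost with library totals (adjusted p = 0.0699) and with DESeq2 size factors (adjusted p = 0.227), where its log2 ratio was 0.14 and 0.10. The direction of each of the 4 members was the same under the scalings tried. With the spread of these libraries, a coefficient of variation of 13.2% by edgeR, the edgeR exact test called 0 of the 4 members, 0 at an unadjusted p under 0.05, and 1.38% of all genes. That spread was estimated from the same libraries with the pups treated as replicates, so it contains the difference under test. Few calls follow largely from this, and the test cannot show that the members did not differ. Genes of like depth differed to a similar degree. Of 29 genes with counts within 2-fold of those of Mir214, 24 passed the binomial test and 16 had a larger ratio in either direction. Of 56 such genes for Mir199b, 22 passed and 21 had a larger ratio.

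In the list of mesenchyme and fibroblast genes, 8 of 15 tested members were higher in pup 2 by the binomial test and 1 was lower, beside 19.1% and 13.3% of all genes. With library totals or DESeq2 size factors 7 were higher and 1 was lower, and the edgeR exact test called 0 of the 15, with 0 at an unadjusted p under 0.05. Calls by the binomial test rise with depth. It called 10% of genes with counts within 2-fold of Mir199a-1 and 82.8% of those within 2-fold of Mir214. The share at the depth of the listed genes, here and for blood cells below, was not worked out. The summed level of the list ran the other way, with 68888 CPM in pup 2 against 69894 CPM in pup 1. Mir22 alone had 17315 CPM in pup 2 against 21446 CPM in pup 1. That drop is larger than the drop of the sum, so the other genes together were higher in pup 2. The lower gene was Mir22, with a log2 ratio of -0.28, and among the higher were Mir140 at 0.29, Mir29a at 0.28, Mir10a at 0.19 and Mir100 at 0.18. The median of the list was 0.16, beside 0.03 over all tested genes. With library totals it was 0.13 beside 0.01, and with DESeq2 size factors 0.095 beside -0.03. With the TMM library sizes of the main test, ratios were above 0 for 13 of the 15 tested genes of this list. They were below 0 for Mir22 and for Mir218-1 at -0.16. Signs near 0 depend on the scaling, and the share of all tested genes above 0 was not counted. Mir199b at 0.16 and Mir199a-2 at 0.11 had the sign of most of the list. Mir214 at -0.091 and Mir199a-1 at -0.13 had that of Mir22 and Mir218-1. Mir199a-2, Mir199a-1 and Mir218-1 did not pass the binomial test. Of the blood cell miRNAs, 3 of 6 tested were higher in pup 2 by the same binomial test, against 19.1% of all genes, and 1 of them, Mir223, by the edgeR exact test. Their sum was 2357 CPM in pup 2, against 1201 CPM in pup 1. Without Mir223, left out after its values were seen, the sum was 1083 CPM in pup 2 and 804.9 CPM in pup 1. Their part in the member ratios was not tested.

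**Figure D4:**
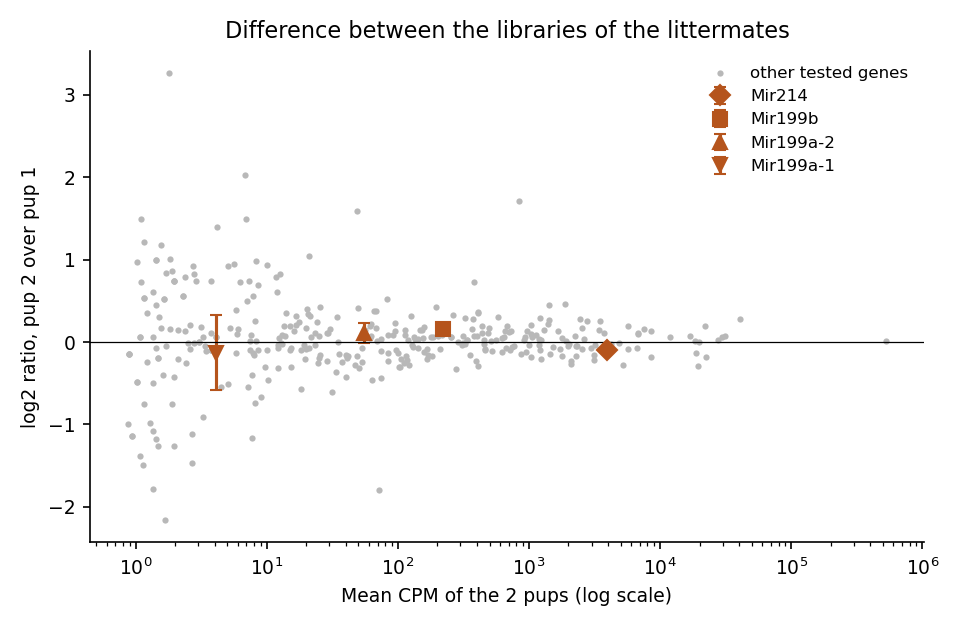
Log2 ratio of pup 2 over pup 1 (vertical axis) against the mean CPM of the pups (log axis) for the 362 tested genes, with the members in orange and bars of 1 counting SE. Mir214 at -0.091 and Mir199b at 0.16 lie among the other genes of like level, and Mir199a-1 has the widest bar.

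The column read as the opposite strand was chosen because it held few counts over all genes, 3.18% in pup 2 and 3.17% in pup 1, so its low values at most genes follow from that choice. At the members it is given as a description. Mir199b, Mir199a-2 and Mir199a-1 had 0 counts there in either pup. With so few counts in all, 0 allows an opposite-strand share at Mir199a-1 of up to 21.4% in pup 2 and 9.38% in pup 1. The limit was 1.44% in pup 2 and 0.746% in pup 1 at Mir199a-2, and 0.354% in pup 2 and 0.190% in pup 1 at Mir199b. Mir214 had 0 counts in this column in pup 2 and 1 in pup 1, of 30677 in both columns (0.00326%, exact 95% interval 8.25e-05% to 0.0182%).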

How the data were processed

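MicroRNA-seq was done on 2 bladders. The authors deposited whole-number counts per miRNA gene, not normalized, 1 table per library. The genome build was mm10 and the annotation GENCODE M4, per the labels and the deposited README text, with no aligner or counter named in either source. The columns have no header. The first equalled the other columns added up in all 1973 genes and was read as both strands. Of the others, the one with nearly all counts was read as sense, which no header or label states. Reads without a sense-strand gene (35.2% of reads in pup 2 and 34.1% in pup 1) stayed out of library sizes and tests.

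Ensembl gene numbers were matched to GENCODE M21 (GRCm38, which is mm10) for symbols and positions, and 1894 of 1973 IDs matched. CPM is sense counts per 1000000 sense gene counts. The pups were compared with an exact binomial test, tested on simulated data, with TMM library sizes from edgeR 4.0.16 in R 4.3.3 and a prior count of 0.5. The simulated counts had counting noise and no spread between animals, so they do not show how the test behaves where animals vary. TMM used the genes with at least 10 counts summed. The edgeR exact test used the common dispersion of an intercept-only model, which contains the difference between the pups. DESeq2 1.42.0 gave alternative size factors. Intervals are Clopper-Pearson, at 95%, and a count of 0 was given a limit of 3 counts. Of the genes, 916 had a mature sequence in RefSeq. Python 3.11.15 with scipy 1.17.1 did the rest.

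The members and lists were chosen with earlier results of these data known. The genes named are the members, genes within 10 kb of one, the 3 genes next above and below Mir214 and Mir199b in rank, and list members. Others, such as Mirlet7c-2, Mir103-2, Mir3074-1 and Mir378c, were named after their values were seen. The alternatives were other scalings, totals, strands, count minimums, prior counts, run lengths and each pup left out.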

Additional observations from a re-analysis of the deposited data

How the results depend on the processing

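Levels in CPM moved with the total used and kept their order. With Mir143 left out of the totals they were 8322 for Mir214, 467.7 for Mir199b, 116.9 for Mir199a-2 and 8.57 for Mir199a-1. With all listed reads as total they were 2585, 145.2, 36.3 and 2.66 in the same order. The call for Mir199b was lost with library totals (log2 ratio 0.14), DESeq2 size factors (0.10), no count filter (0.16, adjusted p = 0.0547 by the exact binomial test) and the edgeR exact test (0.16), and over all its alternatives its adjusted p ran from 0.0217 to 1. The call for Mir214 was lost with the edgeR exact test alone (log2 ratio -0.091). That test, whose dispersion contains the difference between the pups, called 5 genes in all, and a 2-fold minimum left 10 of the 117. Of those 117, 69 were higher in pup 2. With library totals 59 of 123 were, and with DESeq2 size factors 49 of 122. Over all 1894 genes with a sequence, with whole genes compared where no mature miRNA was given, 2.51% of 875 genes with a copy and 13.2% of 1019 without one reached 100 CPM. With genes that had no count left out, the shares were 21.2% and 23.8%. Without 1 pup the level of Mir214 was 3797 to 4112 CPM and its fold over Mir199b 16.3 to 19.4. Mir199a-1 had too few counts for the minimum of 100. No paired analysis was possible because the libraries form 1 group with 1 sample per replicate number. Depth limits Mir199a-1 most, at 14 counts in pup 2 and 32 in pup 1.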
